A study of Danio rerio with 6 samples.

Results

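Hearts of adult zebrafish carrying 1 mutant copy of cloche (genotype clofv087b/+, here heterozygote) were compared between a sham library and a library taken 7 days after amputation (7 dpa). Single cells of ventricles were profiled with a droplet 3' kit, 15 ventricles being pooled for each library and about 12000 cells loaded. The series also holds a heterozygote library at 3 dpa and wild-type libraries at sham, 3 dpa and 7 dpa, which enter here only as values beside the heterozygote pair. Both compared libraries carry the cloche allele, so nothing in the pair isolates its effect. The control library is named sham in its title, while its treatment label reads untreated. Cells were barcodes with at least 500 UMIs (unique molecular identifiers, each a counted transcript), at least 200 genes and at most 30% mitochondrial UMIs: 9016 sham and 14122 at 7 dpa, together 23138 of the 65399 such cells in the 6 libraries. With 1 pooled library per group there is no replicate and no test, and every interval below covers counting error only.

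The zebrafish ventricle replaces amputated muscle from cardiomyocytes that survive, dedifferentiate in part and divide. During this response epicardial cells and fibroblasts spread over the wound and lay down a transient matrix of collagens, fibronectin and periostin, while macrophages clear debris and endothelial cells revascularise the clot. Cloche encodes Npas4l, a transcription factor at the head of the endothelial and blood programmes of the zebrafish embryo.

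The kept cells held 74452466 UMIs in sham and 115616806 at 7 dpa, with medians of 4434.5 and 4054 UMIs per cell. The median mitochondrial share was 3.99% and 5.15%. The libraries shared 41 cell barcodes, 0.455% of the smaller one, against 18 to 54 in the other library pairs. Transcripts of npas4l were near the detection limit in both libraries, with 24 and 54 UMIs, so the gene gives no check of the genotype. Transcripts of myl7, the cardiomyocyte myosin light chain, were found in every class of cells and were higher there at 7 dpa: 863 against 1800 CPM (counts per 1000000 UMIs of the class) in endothelial-like, 572 against 1008 in macrophage-like and 388 against 953 in epicardial/fibroblast-like cells, beside 26818 against 31450 in cardiomyocyte-like cells. The part of free muscle RNA in low levels of muscle genes outside cardiomyocyte-like cells was not tested.

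Classes were set from raw UMIs of marker genes, and their names carry the ending -like. The share of epicardial/fibroblast-like cells was 5.70% in sham (514 cells, exact 95% interval 5.23 to 6.20%) and 12.8% at 7 dpa (1811 cells, 12.3 to 13.4%), a 2.25-fold difference with a log2 ratio of 1.17 (1.03 to 1.31). In this class 5 of the 12 markers were themselves over 2-fold higher at 7 dpa (col1a1a, col1a2, postnb, col12a1a and lum), and with those left out the log2 ratio was 0.82. Cardiomyocyte-like cells made up 14.4% and 19.1% (log2 ratio 0.40, 0.31 to 0.50), and macrophage-like cells 27.8% in both (0.00, -0.07 to 0.07).

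Endothelial-like cells were the largest of the classes with a lower share, at 13.6% in sham and 9.28% at 7 dpa (log2 ratio -0.55, -0.67 to -0.44). Mural-like cells, the pericytes and smooth muscle of vessels, went from 3.88% to 2.32% (-0.74, -0.96 to -0.52), and thrombocyte-like cells, the nucleated platelets of fish, from 7.85% to 3.46% (-1.18, -1.35 to -1.01). Of the 10 mural markers 6 were themselves over 2-fold apart between the libraries, most of them higher at 7 dpa. Lymphocytes were rarer too: T/NK-like cells made up 1.41% and 0.503% (-1.49, -1.93 to -1.06) and B-like cells 1.72% and 0.659% (-1.38, -1.77 to -1.0). Neutrophil-like cells (0.355% and 0.411%) and erythrocyte-like cells (1.64% and 1.99%) had intervals of the ratio that include 0. In the wild-type pair the log2 ratio was also positive for epicardial/fibroblast-like cells (1.71), but it was -0.34 for cardiomyocyte-like, 0.19 for endothelial-like, 0.05 for mural-like and 0.33 for thrombocyte-like cells. Shares of 1 library sum to the whole, and the sort of Hoechst-stained single cells and the loading can set them too. Cells without a class made up 17.2% and 16.5%, and those with markers of several classes 4.06% and 5.03%.

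**Figure D1:**
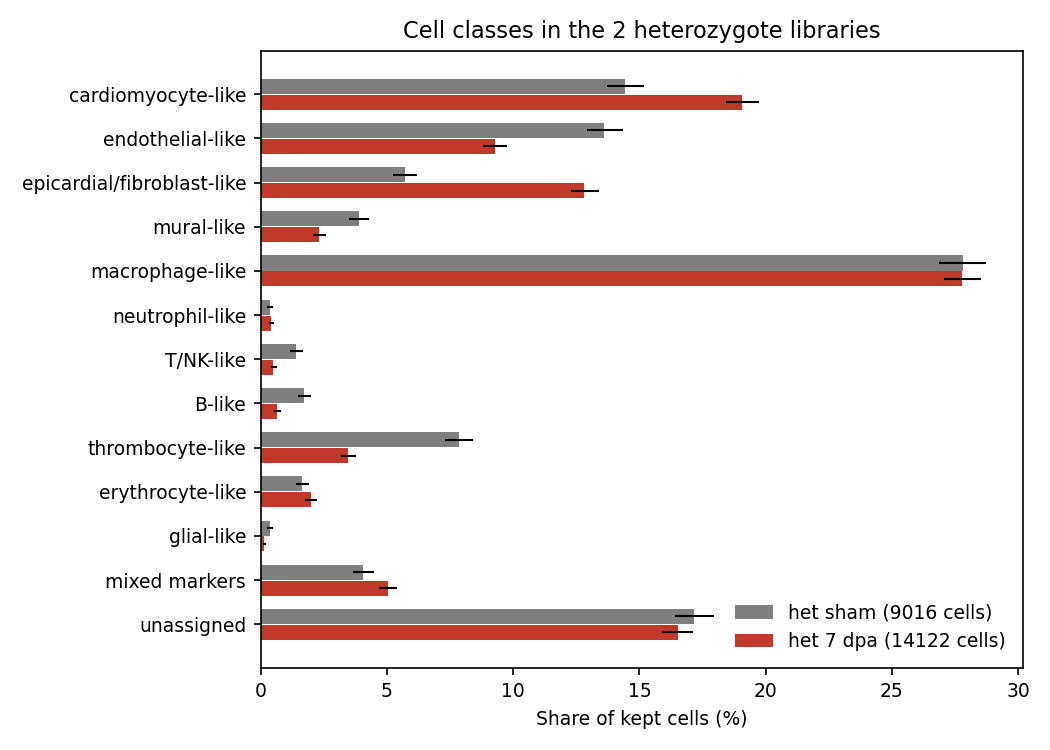
Share of kept cells (%) in each class in the heterozygote sham (grey) and 7 dpa (red) libraries; bars start at 0 and lines are exact 95% binomial intervals. Epicardial/fibroblast-like cells went from 5.70 to 12.8%, thrombocyte-like cells from 7.85 to 3.46%, and macrophage-like cells were 27.8% in both.

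Over all cells, 78 of 15637 genes tested (0.499%) were at least 2-fold higher at 7 dpa and 56 (0.358%) at least 2-fold lower, after adding 10 CPM to both levels and with at least 50 UMIs in the higher library. The genes furthest above the sham level came from muscle, wound stroma and macrophages. Among them was acta1a, a skeletal-type alpha actin, at 14.7 CPM in sham and 387 CPM at 7 dpa (log2 ratio 4.01). The growth factor midkine, mdka, went from 70.9 to 617 CPM (2.95), the periostin gene postnb from 17.4 to 187 CPM (2.85) and col12a1a, a collagen that bridges fibrils, from 5.45 to 102 CPM (2.86). The secreted chaperone clusterin, clu, went from 53.3 to 332 CPM (2.44), and xirp1, an actin-binding protein of the intercalated disc, from 133 to 646 CPM (2.19). The other 4 of the 10 highest were zgc:86709 (3.98), si:dkey-79f11.10 (2.89), zgc:101699 (2.58) and CU459094.3 (2.23). The first has its highest level in cardiomyocyte-like cells and the rest in macrophage-like cells. In wild type the log2 ratios were smaller for acta1a (1.66), zgc:86709 (1.92) and xirp1 (1.04), from sham levels of 153, 201 and 348 CPM. They were larger for mdka (3.98), postnb (3.60), col12a1a (3.06) and clu (2.86), and negative for the macrophage genes.

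For mdka, clu, postnb and acta1a the mix of these classes alone gave smaller differences than those measured. The mix was taken as the share of UMIs in each class, which depends on cell numbers and on depth. Had each class kept its sham level, the mix of 7 dpa would have put mdka at 109 CPM, clu at 83.9 CPM and postnb at 27.0 CPM. These are log2 ratios of 0.55, 0.57 and 0.44. For acta1a this value was 16.6 CPM, close to sham. Subtypes inside a class were not separated, so a change in their mix was not tested, and postnb is itself a marker that set its class.

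**Figure D2:**
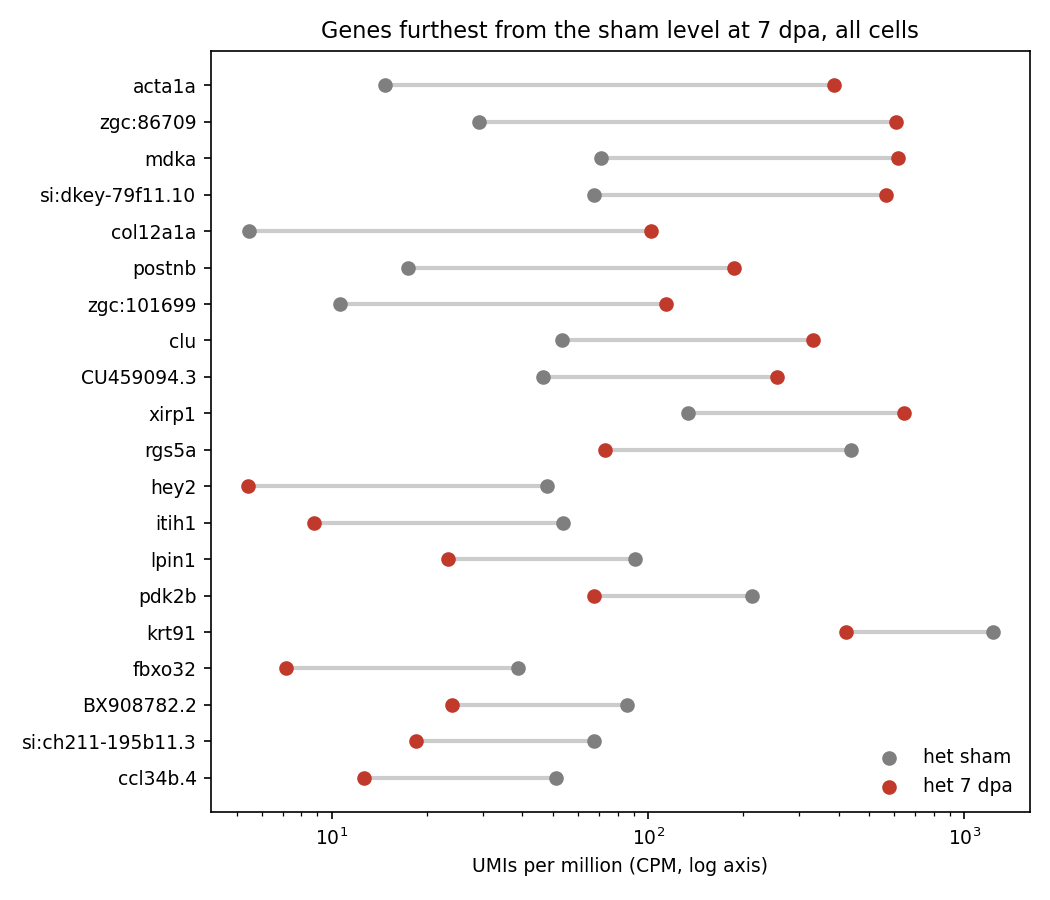
Level in CPM (log axis) of the 10 genes with the highest and the 10 with the lowest log2 ratio in all cells; grey points are the heterozygote sham library and red points the 7 dpa library. The gap was widest for acta1a, from 14.7 to 387 CPM, and among the lower genes for hey2, from 47.7 to 5.44 CPM.

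The gene with the lowest log2 ratio was rgs5a, a G-protein regulator of pericytes, at 437 CPM in sham and 72.8 CPM at 7 dpa (log2 ratio -2.43). With each class at its sham level, the mix of UMIs by class at 7 dpa would give -1.21. Mural-like cells held 4.06% of the UMIs in sham and 1.43% at 7 dpa. The level within mural-like cells, of which rgs5a is a marker, was 9998 CPM against 4122 CPM. The Notch target hey2, a transcriptional repressor of heart and vessels, went from 47.7 to 5.44 CPM (-1.90), and itih1, a heavy chain of the inter-alpha-trypsin inhibitor, from 54.0 to 8.77 CPM (-1.77). Metabolic genes followed: lpin1, a phosphatidate phosphatase, from 91.1 to 23.3 CPM (-1.60), and pdk2b, a pyruvate dehydrogenase kinase, from 213 to 67.4 CPM (-1.53). Next came fbxo32, a ubiquitin ligase of muscle wasting, from 38.9 to 7.15 CPM (-1.51). The keratin krt91 went from 1227 to 424 CPM (-1.51). The remaining 3 were BX908782.2 (-1.49), si:ch211-195b11.3 (-1.44), which has its highest level in thrombocyte-like cells, and the chemokine ccl34b.4 (-1.43). With equal weight per barcode, fbxo32 (-0.94) and BX908782.2 (-0.51) were within 2-fold and hey2 was at -1.22. The other genes named in all cells stayed past 2-fold. The wild-type pair was past 2-fold lower as well for lpin1 (-2.23), pdk2b (-2.16), fbxo32 (-1.23), krt91 (-1.15), BX908782.2 (-1.07) and rgs5a (-1.06). It stayed within 2-fold for ccl34b.4 (-0.71), itih1 (-0.61) and si:ch211-195b11.3 (-0.09), and hey2 was at 6.44 and 6.71 CPM there.

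Cardiomyocyte-like cells (1302 in sham, 2694 at 7 dpa, median 23009.5 and 17625.5 UMIs) had 65 genes (0.588% of 11060 tested) past 2-fold higher and 39 (0.353%) past 2-fold lower. Within each class, the genes named for high or low ratios were taken among those that set no class and whose level there reached a fraction of at least 0.25 of their highest level in any class; other genes can have larger ratios. Among the genes so chosen were skeletal-type actins. The level of acta1a was 32.2 CPM in sham (95% Poisson interval 30.1 to 34.3) and 737 CPM at 7 dpa (729 to 744), a log2 ratio of 4.15. Cells with at least 1000 UMIs were thinned to 1000 UMIs, and shallower cells were left out of all thinned shares. Of 1295 thinned cardiomyocyte-like cells in sham 2.16% had an acta1a UMI, and of 2665 at 7 dpa 24.8% (19.4% and 52.5% of all cells of the class unthinned). In thinned macrophage-like cells these shares were 0.204% and 1.72%. A second actin, acta1b, was already abundant in sham, at 1217 CPM, and reached 4060 CPM (1.73). The uncharacterised zgc:86709 went from 70.0 to 1197 CPM (3.91), with a UMI in 3.47% and 46.6% of thinned cells. The small heat shock gene hspb9 went from 1.56 to 71.6 CPM (2.82), in 246 cells at 7 dpa. Wild-type sham lay above heterozygote sham for acta1a (286 CPM) and zgc:86709 (348 CPM), and the wild-type log2 ratios were 1.63 and 2.01. For hspb9 wild-type sham was at 4.70 CPM and the wild-type ratio was 2.71.

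Of 24 measured genes on a list known from regenerating zebrafish cardiomyocytes, 4 were past 2-fold higher and 0 lower, with a median log2 ratio of 0.22 against -0.02 over all genes tested in the class. They were xirp1 (322 to 1350 CPM, 2.04), the stretch-responsive ankrd1a (0.0692 to 24.2 CPM, 1.77, 2 UMIs in sham), acta1b, and the natriuretic peptide nppb (772 to 1565 CPM, 1.01). The paired peptide gene nppa was at 1331 and 1671 CPM (0.33). The filamin flnca (379 to 738 CPM, 0.94) and mustn1b (514 to 924 CPM, 0.84) lay just under 2-fold, and the cardiac transcription factor gata5 was at 53.7 and 24.0 CPM (-0.91). The contractile and metabolic machinery was close to the sham level. Of 19 sarcomere genes, 1 was past 2-fold higher, the titin cap gene tcap (113 to 408 CPM, 1.77), and the list median was -0.08. None of 11 calcium handling genes (median -0.10), 26 fatty acid oxidation genes (0.11) or 47 oxidative phosphorylation genes (0.11) passed 2-fold. Among 27 glycolysis genes the dehydrogenase gapdhs was past 2-fold higher (83.8 to 191 CPM, 1.1) and pdk2b lower.

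The genes named by this rule for low ratios in cardiomyocyte-like cells were hey2, fbxo32, pdk2b and sesn1. The level of hey2 was 106 CPM in sham (102 to 110) and 6.87 CPM at 7 dpa (6.17 to 7.62), a log2 ratio of -2.78. In thinned cells 9.42% and 0.976% had a hey2 UMI, beside 0.255% and 0.0920% of macrophage-like cells. The other libraries held little of it: 26.2 CPM at 3 dpa in the heterozygote, and 9.12 and 7.30 CPM in wild-type sham and 7 dpa, so the heterozygote sham library stood apart from the 3 others. The level of fbxo32 went from 84.1 to 12 CPM (-2.10), pdk2b from 316 to 75.4 CPM (-1.93) and the stress-induced sestrin gene sesn1 from 154 to 36.4 CPM (-1.82). For these 3 the wild-type pair gave -1.64, -3.44 and -1.57. Mural markers were lower in this class as well, from 1302 to 825 CPM summed over 10 markers, mostly acta2 (938 and 387 CPM). Their part in the other differences was not tested.

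Epicardial/fibroblast-like cells (514 and 1811, median 7228 and 4521 UMIs) had 269 of 9157 genes (2.94%) past 2-fold higher and 103 (1.12%) past 2-fold lower. Of 22 genes for collagens and fibril assembly, without the class markers, 11 were past 2-fold higher and 0 lower, with a median log2 ratio of 1.00 against 0.11 over all genes tested in the class. Type XII col12a1b went from 5.74 to 123 CPM (3.08), col5a1 from 432 to 1573 CPM (1.84), col6a2 from 227 to 640 CPM (1.46), and type I col1a1b, already at 1285 CPM in sham, to 2688 CPM (1.06). The lysyl oxidase-like gene loxl2a went from 29.2 to 182 CPM (2.29) and the lysyl hydroxylase plod2 from 25.3 to 104 CPM (1.69). Basement membrane collagens lay lower, col4a1 at 444 and 524 CPM (0.23) and col4a2 at 262 and 412 CPM (0.63). Another fibrillar collagen gene, col11a1b, which is not on the list, had 3 UMIs in sham (0.717 CPM) and 96.2 CPM at 7 dpa, in 332 cells (3.31).

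Wound glycoproteins and growth factors bound to matrix followed the collagens. Of 22 such genes 7 were past 2-fold higher and 0 lower, with a median log2 ratio of 0.82. Midkine, mdka, reached 4551 CPM from 786 CPM (2.52), with 1 cell holding 27.9% of its sham UMIs. The fibronectins fn1a (133 to 516 CPM, 1.88) and fn1b (1176 to 2737 CPM, 1.21), the periostin postna (19.1 to 118 CPM, 2.13), the hyaluronan synthase has1 (2.15 to 20.6 CPM, 1.33), ccn2a (204 to 507 CPM, 1.27) and the thrombospondin thbs1a (158 to 328 CPM, 1.01) made up the rest. The second midkine, mdkb, was at 562 and 297 CPM (-0.90). Among 12 proteases and inhibitors 3 were past 2-fold higher, among them the metalloprotease adam8a (6.69 to 83.1 CPM, 2.48) and timp2b (26.8 to 104 CPM, 1.63).

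**Figure D3:**
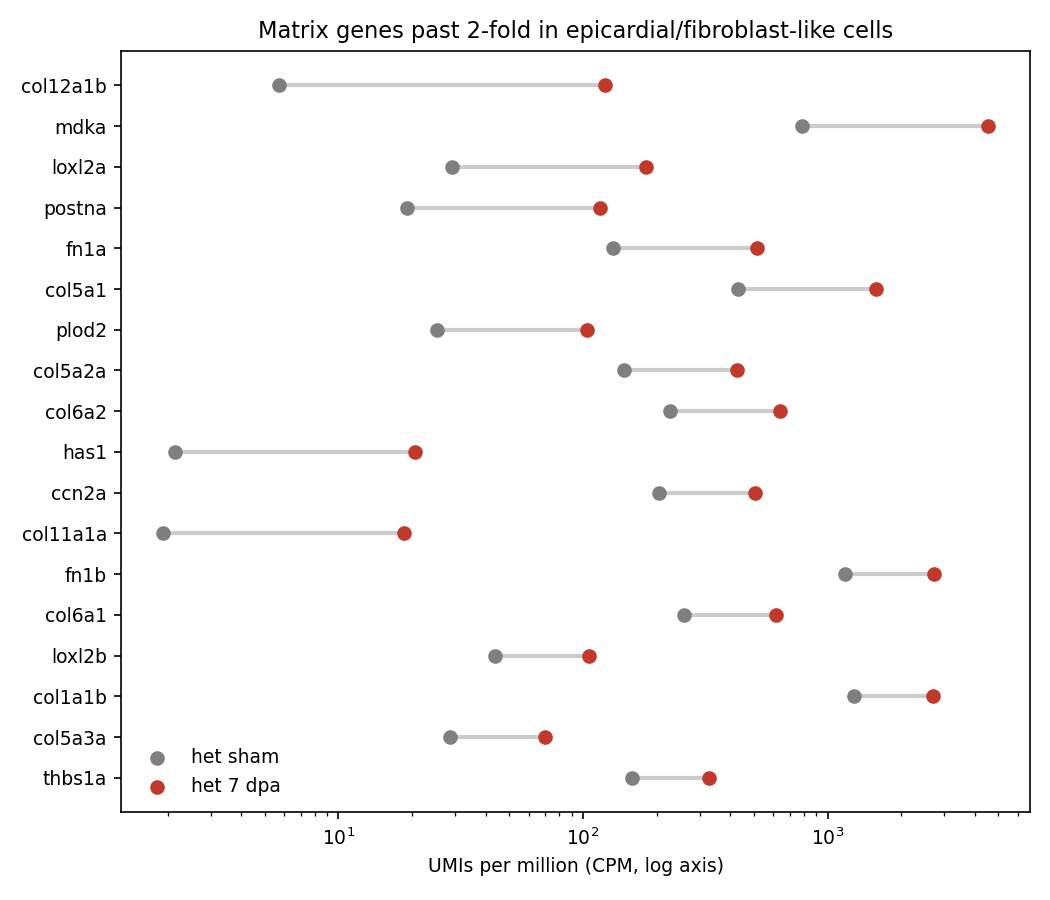
Level in CPM (log axis) of the collagen and wound glycoprotein list members past 2-fold higher in epicardial/fibroblast-like cells, class markers left out; grey points are heterozygote sham and red points 7 dpa. Levels ran from col11a1a (1.91 to 18.5 CPM) to mdka (786 to 4551 CPM).

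Signals went both ways. Of 19 signalling genes of injured epicardium 3 were past 2-fold higher, namely mdka, the activin subunit inhbaa (9.08 to 68.5 CPM, 2.04) and the follistatin-like gene fstl1b (380 to 791 CPM, 1.04). The Wnt agonist rspo1 (62.9 to 1.90 CPM, -2.61) and angptl7 (98.0 to 0.838 CPM, -3.32) were past 2-fold lower, and igf2b lay just above that limit (393 and 208 CPM, -0.89). Of 9 identity genes that set no class, clu (590 to 2541 CPM, 2.09) and the simple-epithelium keratin krt18a.1 (442 to 992 CPM, 1.15) were higher and cyp26b1, which degrades retinoic acid, lower (89.6 to 30.7 CPM, -1.29). Cells without a class held more cyp26b1 (429 and 274 CPM) and angptl7 (198 and 148 CPM). In mural-like cells cyp26b1 was higher at 7 dpa (79.7 and 218 CPM). Whether the values of rspo1 and cyp26b1 depend on which cells enter the class was not tested.

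The 4 genes named for low ratios in the class were carried by few sham cells: gpd1b (174 to 4.72 CPM, -3.64, 28 sham cells), zgc:153704 (345 to 20.3 CPM, -3.55, 55 cells), the lipase inhibitor g0s2 (382 to 29.2 CPM, -3.32, 44 cells) and angptl7 (24 cells). The same genes were far higher in the cells without a class, where g0s2 was at 1932 and 1595 CPM, zgc:153704 at 2294 and 1825 CPM and gpd1b at 598 and 237 CPM. When markers over 2-fold apart were left out of the class rule, the log2 ratio of angptl7 was -0.98 and that of zgc:153704 -1.42, so these 2 values depend on which cells enter the class. The share of thinned cells with a zgc:153704 UMI was 3.15% and 2.31%, close to the 3.01% and 1.72% of macrophage-like cells, and that of gpd1b 2.36% and 0.346%, beside 0.968% and 0.307%.

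The wild-type pair, which shares no library with the heterozygote one, was close to it in this class. Of the 269 higher genes 175 were also past 2-fold higher in wild type (4.67% of the tested genes were) and 1 was past 2-fold lower. Of the 103 lower genes 57 were past 2-fold lower in wild type, against 1.68% of the tested genes. For mdka and col12a1b the wild-type log2 ratios were 3.24 and 3.58. At 3 dpa the heterozygote already held 6111 CPM of mdka and 538 CPM of col12a1b, both above their 7 dpa levels, while col11a1b was at 63.5 CPM at 3 dpa.

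Macrophage-like cells (2507 and 3924, median 5669 and 4621 UMIs) differed little: 55 of 11156 genes (0.493%) were past 2-fold higher and 31 (0.278%) lower. The 4 genes named for high ratios were the uncharacterised zgc:101699 (35 to 450 CPM, 3.35), si:dkey-79f11.10 (221 to 2104 CPM, 3.20), CU459094.3 (141 to 989 CPM, 2.72) and si:dkey-79f11.8 (56.7 to 409 CPM, 2.65). A minority of macrophage-like cells held them. After thinning, 2.09% and 15.7% of macrophage-like cells had a zgc:101699 UMI, beside 0.450% and 0.667% of endothelial-like cells, and 6.37% and 26.0% had one of si:dkey-79f11.10, beside 0.450% and 4.58%. In the heterozygote at 3 dpa the 4 genes were at 93.7, 38.1, 12 and 10.4 CPM. In wild type they went the other way, from 478 to 154 CPM for zgc:101699 and from 1476 to 694 CPM for si:dkey-79f11.10.

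Of 24 measured interferon-stimulated genes, 5 were past 2-fold higher and 0 lower, with a median log2 ratio of 0.57 against 0.02 over all genes tested in the class. They were the antiviral GTPase mxc (96.0 to 282 CPM, 1.46), the guanylate-binding protein gbp1 (214 to 597 CPM, 1.44), the signal transducer stat1b (55.3 to 142 CPM, 1.22), the T-cell attracting chemokine cxcl11.1 (238 to 536 CPM, 1.13) and irf8, a transcription factor of the macrophage lineage (158 to 341 CPM, 1.06). In wild type their log2 ratios were -2.45, -0.63, -0.66, -1.11 and -0.19, from wild-type sham levels above those of the heterozygote at 7 dpa for mxc (648 CPM) and stat1b (188 CPM). Over the class as a whole, 3 of the 55 higher genes were past 2-fold higher in wild type (0.394% of the tested genes were) and 20 were past 2-fold lower (0.798%). The difference between the genotypes was not tested, and each level rests on 1 library.

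**Figure D4:**
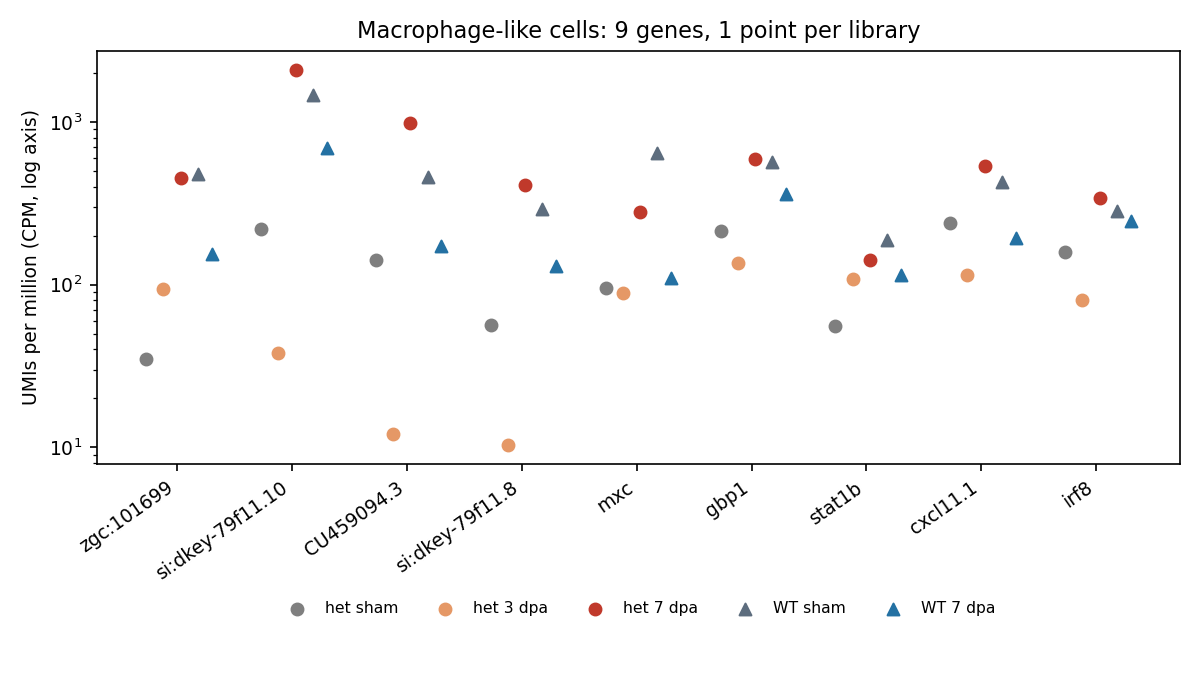
Level in CPM (log axis) of 9 genes in macrophage-like cells, 1 point per library; circles are heterozygote and triangles wild-type (WT) libraries. The 9 genes were picked for being past 2-fold higher at 7 dpa in the heterozygote, so that direction follows from the choice. WT sham lies above WT 7 dpa for them, as for mxc at 648 and 110 CPM.

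Genes of inflammation, lipid handling and antigen presentation in macrophage-like cells were near the sham level. Of 29 inflammatory mediators 0 were past 2-fold higher and 2 lower, the chemokines ccl34b.1 (348 to 126 CPM, -1.40) and cxcl19 (28.0 to 5.42 CPM, -1.30). The cytokine il1b was at 504 and 426 CPM (-0.24) and tnfa at 23.8 and 17.1 CPM (-0.32). None of 24 lipid and lysosome genes (median -0.22), of 9 class II antigen genes (median -0.25, lowest mhc2dab at 1010 and 557 CPM, -0.85) or of 10 complement genes (0.20) passed 2-fold. The genes named for low ratios were lpin1 (72.4 to 14.1 CPM, -1.77), CR847844.2 (64.0 to 13.6 CPM, -1.65), the bZIP repressor nfil3-5 (186 to 52.8 CPM, -1.64) and the inducible heat shock gene hsp70l (274 to 87.7 CPM, -1.54).

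Endothelial-like cells (1227 and 1310, median 3480 and 2901 UMIs) had 79 of 6317 genes (1.25%) past 2-fold higher and 24 (0.38%) lower. Among the genes named for high ratios was nppc, the C-type natriuretic peptide, with 4 UMIs in sham and 345 at 7 dpa (0.829 and 72.9 CPM, 2.94), all from 29 cells at 7 dpa. The class I antigen gene mhc1uba had 0 UMIs in sham, which allows up to 0.765 CPM (upper Poisson limit), and 57.6 CPM at 7 dpa. It was nearly absent from the whole sham library (17 UMIs, 0.228 CPM) and at 20.5 CPM over all cells at 7 dpa, so the difference was not restricted to vessels. In thinned endothelial-like cells 0 of 1110 in sham and 5.58% at 7 dpa had an mhc1uba UMI, beside 0.102% and 2.09% of macrophage-like cells. The lysyl oxidase-like loxl2a (9.12 to 66.9 CPM, 2.01) and abcf2a (8.08 to 53.6 CPM, 1.82) were the others named. Lower were gbp (118 to 8.66 CPM, -2.78, with a UMI in 10.6% and 0.667% of thinned cells beside 1.43% and 0.920% of macrophage-like cells), the cytochrome P450 gene cyp2ad2 (194 to 31.7 CPM, -2.29), the retinol-binding protein rbp2a (544 to 120 CPM, -2.09) and zgc:195001 (52.0 to 6.97 CPM, -1.87, 31 and 9 cells). Transcription factors and Notch and flow genes of vessels stood near sham, with 0 of 22 past 2-fold in either direction and a median of -0.06. They ran from hey1 (13.1 to 5.70 CPM, -0.55) to klf2b (108 to 190 CPM, 0.76). The 10 CPM added damps the ratios of low genes such as hey1. Of 20 receptors and injury genes 2 were past 2-fold higher and 2 lower, with a median of -0.22. The lymphatic receptor lyve1a (15.1 to 47.5 CPM, 1.19, 27.6% of its 7 dpa UMIs in 1 cell) was among the higher. The tip-cell gene esm1 (68.2 to 16.9 CPM, -1.54, with 19.1% and 27.5% of its UMIs in 1 cell) and the apelin receptor aplnra (79.2 to 31.3 CPM, -1.11) were lower, and the receptor kdrl, a class marker, was at 657 and 587 CPM (-0.16). The wild-type log2 ratios were -0.51 for lyve1a, -0.66 for esm1 and -0.23 for aplnra, all within 2-fold.

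Mural-like cells were few and differed in depth, 350 cells of median 8641.5 UMIs in sham and 328 of 3273 UMIs at 7 dpa. Past 2-fold were 390 of 3952 genes higher (9.87%) and 99 lower (2.51%). Scaling by trimmed means, which shifts this class by 0.29 on the log2 scale, gave 280 higher and 180 lower. The genes named for high ratios included zgc:86709 and the muscle genes acta1a and myh7, which 43 to 47 cells held. For each of them 1 cell held 27.3 to 29.5% of the 7 dpa UMIs, while myl7 in the class was at 460 CPM in sham and 4154 CPM at 7 dpa. Another, isg15 (10.3 to 385 CPM), had 97.0% of its 7 dpa UMIs in 1 cell, and without it the log2 ratio was 0.31. Of the 10 markers of the class 6 were over 2-fold apart. Higher were kcne4 (170 and 902 CPM), rasl12 (107 and 577 CPM), cd248a (63.5 and 233 CPM), notch3 (321 and 711 CPM) and pdgfrb (147 and 334 CPM). Lower was rgs5a, and acta2 was at 12441 and 6227 CPM. The mural-like cells of the 2 libraries were thus not alike in these genes. Lower were cyp2ad2 (155 to 8.45 CPM, -3.16), with a UMI in 12.4% and 0.678% of thinned cells beside 0.306% and 0.0307% of macrophage-like cells, si:dkey-164f24.2 (1276 to 311 CPM, -2.0), the hyaluronan link protein hapln1b (350 to 80.8 CPM, -1.99) and the serine protease htra1a (133 to 27.1 CPM, -1.95). The wild-type pair was lower for these 4 too, from -1.30 to -3.35.

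Thrombocyte-like cells (708 and 489, median 1874.5 and 1575 UMIs) had 78 of 3032 genes (2.57%) past 2-fold higher and 51 (1.68%) lower. The factor XIII subunit gene f13a1a.1, whose product crosslinks fibrin, was at 6.64 CPM in sham and 445 CPM at 7 dpa (4.77). Other classes held it as well. At 7 dpa it was at 1166 CPM in macrophage-like, 330 CPM in erythrocyte-like, 191 CPM in endothelial-like and 54.2 CPM in cardiomyocyte-like cells, against 602, 2.93, 7.67 and 1.42 CPM in sham. After thinning, 1.12% of macrophage-like cells held an f13a1a.1 UMI in sham and 17.5% at 7 dpa (3.83% and 49.97% unthinned). The adaptor grb10b (12 to 231 CPM, 3.46) and the tRNA synthetase aars (18.6 to 222 CPM, 3.02) were also named for high ratios, in 78 and 48 cells at 7 dpa. Of 9 receptor and coagulation genes that set no class, mmp9 was the 1 past 2-fold (5.31 to 623 CPM, 5.37), and the list median was -0.36 against -0.10 over all genes tested. The mmp9 UMIs came from 6 thrombocyte-like cells in sham and 41 (8.38%) at 7 dpa, with 15.5% of the 7 dpa UMIs in 1 cell. Another class held far more mmp9, so the gene fell short of the level that the rule for named genes asks. The wild-type pair was also higher for f13a1a.1 (4.90) and mmp9 (4.53). Of the 4 named for low ratios, mgp (-1.85) had 84.2% of its sham UMIs in 1 cell and zgc:153704 (-1.64) had 58.2%, while CABZ01074397.1 (56.4 to 12.8 CPM, -1.54) and the glycosyltransferase galnt14 (82.3 to 22.1 CPM, -1.52) were spread over 76 and 100 sham cells.

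Erythrocyte-like cells were shallow, with 148 and 281 cells and 487 genes tested, of which 77 (15.8%) were past 2-fold higher and 5 (1.03%) lower. The class held 341333 UMIs in sham and 670309 at 7 dpa. A gene thus passes the filter on UMIs at a lower CPM through 7 dpa than through sham, which favours genes high at 7 dpa. The median log2 ratio over all genes tested in the class was 0.46. The split into higher and lower genes therefore says little about change in these cells. Of the 4 genes named for high ratios, BX649485.4 and BX649485.2 had 94.5% and 93.2% of their 7 dpa UMIs in 1 cell each, and the others were f13a1a.1 (2.93 to 330 CPM) and si:ch1073-184j22.1 (11.7 to 80.6 CPM, 2.06). Of 4 heme and globin genes that set no class 0 passed 2-fold. The minor globins hbaa2 (11051 and 2169 CPM) and hbba2 (20657 and 4261 CPM), which helped to set the class, were lower, and igfbp1a was at 252 and 76.1 CPM (-1.61). The others named, prdx2 (-0.70), blvrb (-0.68) and aqp1a.1 (-0.57), stayed within 2-fold.

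Proliferation was compared in cells with at least 1000 UMIs, thinned to 1000 UMIs, by counting those with at least 2 UMIs of the S and G2/M lists. This left out 1728 of 9016 cells in sham and 2565 of 14122 at 7 dpa. The share was 4.53% in sham (95% interval 2.89 to 6.72%) and 5.42% (4.40 to 6.59%) at 7 dpa in epicardial/fibroblast-like cells, 4.56% (3.49 to 5.84%) and 4.80% (4.02 to 5.68%) in cardiomyocyte-like cells, and 7.39% (5.92 to 9.09%) and 8.17% (6.68 to 9.86%) in endothelial-like cells. Macrophage-like cells were at 15.1% (13.5 to 16.7%) and 16.8% (15.5 to 18.1%), and all cells at 11% and 10.4%. The intervals overlapped in each of these classes. Summed over the S-phase list, the level was 62.8 CPM in sham and 96.9 CPM at 7 dpa in cardiomyocyte-like and 76.7 and 131 CPM in epicardial/fibroblast-like cells. It was 511 and 600 CPM in macrophage-like, 121 and 146 CPM in endothelial-like and 144 and 208 CPM in mural-like cells. The Poisson intervals did not overlap in these classes, but did in thrombocyte-like and erythrocyte-like cells. For both lists such intervals take each UMI as independent, though 1 cell can give many. They are therefore too narrow, and a lack of overlap does not show a difference. The G2/M list was at 251 and 247 CPM in cardiomyocyte-like cells, with overlapping intervals. It was at 198 and 253 CPM in epicardial/fibroblast-like and 713 and 766 CPM in macrophage-like cells, where the intervals did not overlap. Over all cells the G2/M list was lower at 7 dpa, at 451 and 414 CPM. None of 24 S-phase or 24 G2/M genes passed 2-fold in all cells, where the S-phase list summed to 231 and 258 CPM. Adding 10 CPM damps ratios of such low genes, and a gene under 10 CPM in sham cannot be called lower. This count therefore says little about change. With 1 CPM added the list medians were 0.16 for S phase and -0.24 for G2/M.

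Genes of systemic stress and daily rhythm were read over all cells, where 0.499% of genes tested were past 2-fold higher and 0.358% lower. Of 18 glucocorticoid-type genes 0 were past 2-fold higher and 2 lower, pdk2b and glutamine synthetase glula (36.9 to 11.3 CPM, -1.14), with a list median of -0.34 against -0.02 over all genes. Of 31 clock genes (median -0.22) 1 was lower, nfil3-5 (62.0 to 23.1 CPM, -1.12), and none of 25 immediate early genes passed 2-fold (median -0.14). Of 29 heat shock genes (median 0.28) 3 were higher: hspb6 (32.9 to 93.9 CPM, 1.28), hspb8 (73.4 to 188 CPM, 1.25) and hsp90aa1.1 (71.9 to 180 CPM, 1.21). None of 12 ferritin and iron genes passed 2-fold (-0.02).

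**Figure D5:**
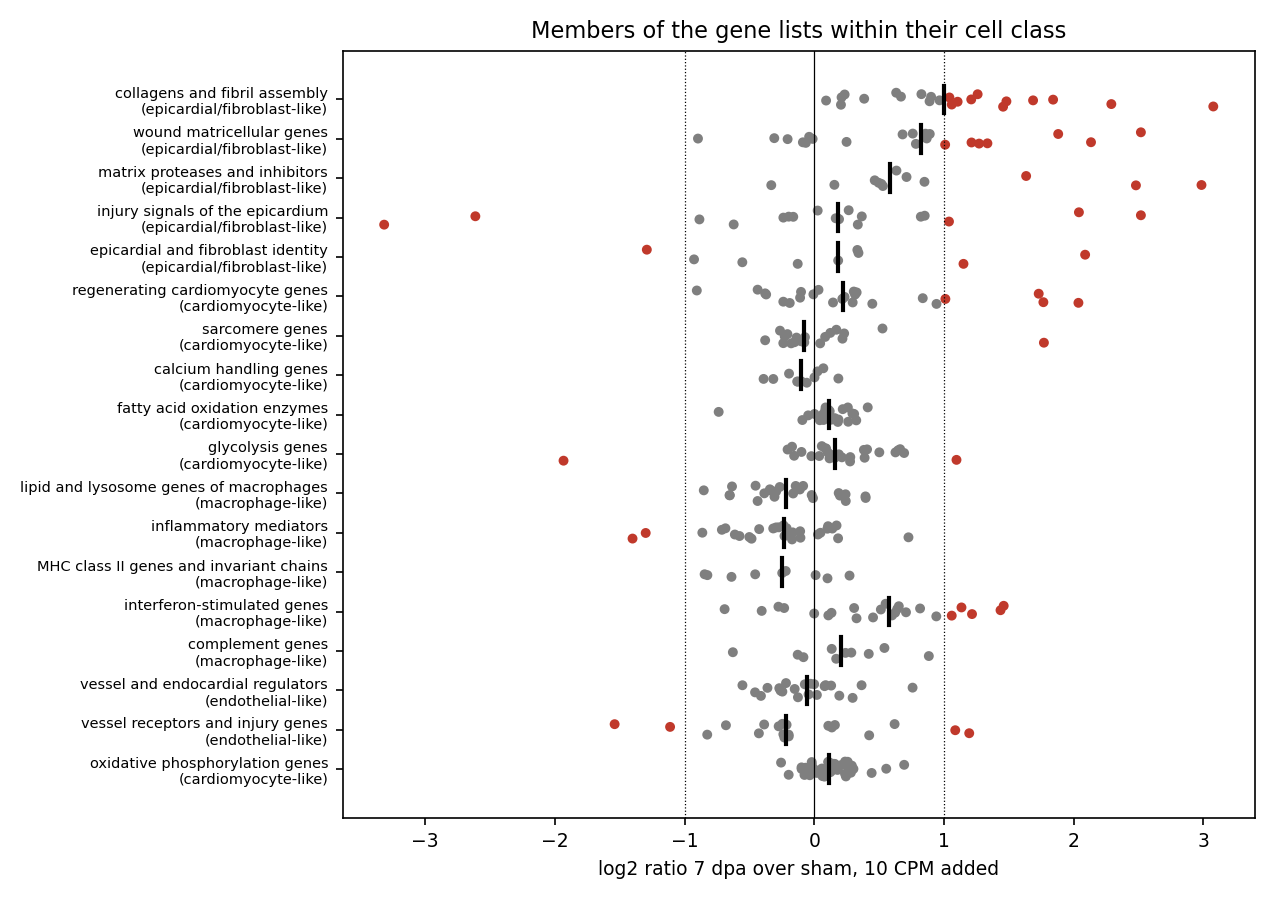
log2 ratio of 7 dpa over sham (10 CPM added) for each measured list member within the class named beside its list; red points are past 2-fold (dotted lines) and black bars are list medians. Collagen genes lie to the right with a median of 1.00 and interferon-stimulated genes with 0.57, while sarcomere (-0.08) and oxidative phosphorylation (0.11) genes lie around 0.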

How the data were processed

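Single-cell libraries of zebrafish ventricles, 1 per genotype and time, were deposited by the authors as raw counts of UMIs per gene and barcode. Per the submitters' processing notes, Cell Ranger 3.0.2, Seurat 3.1.4 and the build GRCz11 were used; their settings are not given in the sources used here. No doublets were removed in the main results. Scrublet (in scanpy 1.11.5) marked 681 sham barcodes (7.55%) and 1674 at 7 dpa (11.9%), which one alternative leaves out.

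Counts of 528 symbols with more than 1 identifier were summed. UMIs were then summed per library and class and scaled to counts per 1000000 (CPM). The log2 ratio was taken after adding 10 CPM, for genes with at least 50 UMIs in the higher library, and a 2-fold ratio is a description, not a test. Intervals are exact at 95% (Poisson for CPM, Clopper-Pearson for shares, conditional binomial for ratios of shares). They cover counting error only, since the spread between fish or pools is unknown. Poisson limits take each UMI as independent, though 1 cell can give many. With 1 library a group there is no replicate check.

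Of 119 class markers 109 set classes: 8 were found in over 50% of barcodes and 2 were not used. A class needed at least 4 marker UMIs of at least 2 markers, its marker share reaching at least 10% of the 95th percentile and the next class at most 50% of it, otherwise the cell was mixed or unassigned. This rule was set after the data were seen. Class markers were left out of the named genes and list counts within classes. The genes named are the 10 highest and 10 lowest ratios in all cells, the 4 highest and 4 lowest in each class with at least 100 cells per library whose level reaches a fraction of 0.25 of the gene's highest class, and members of the gene lists with the largest ratios; some genes the rule picks are not reported here. The comparison, lists and tests were chosen with earlier results of these data known. Alternatives were TMM (edgeR 4.0.16) and median-of-ratios scaling, 1 CPM added, no filter, stricter barcode filters, doublet removal, other marker rules and equal weight per barcode. The steps were tested on simulated data. Python 3.11.15, numpy 2.4.6, scipy 1.17.1, pandas 2.3.3 and matplotlib 3.10.9 were used.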

Additional observations from a re-analysis of the deposited data

Results flagged for a closer look

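Among the named genes and gene list members, 14 values were past 2-fold in one direction in the heterozygote pair and in the other in wild type. Genes outside that choice are not listed here. Over all tested genes in all cells, 14 of the 78 higher and 3 of the 56 lower in the heterozygote were past 2-fold the other way in wild type. For all cells the share of tested genes past 2-fold in wild type was not taken, so these counts cannot be set against a base rate. In macrophage-like cells 20 of the 55 higher genes were past 2-fold lower in wild type, where 0.798% of the tested genes were. There 1 of the 31 lower genes was past 2-fold higher in wild type, where 0.394% of the tested genes were. The difference between the pairs was not tested, and each pair is 1 library against 1 library.

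In macrophage-like cells the heterozygote log2 ratio was 3.351 for zgc:101699, 3.197 for si:dkey-79f11.10, 2.725 for CU459094.3 and 2.652 for si:dkey-79f11.8, against -1.57, -1.08, -1.37 and -1.11 in wild type. For the interferon-stimulated genes mxc and cxcl11.1 it was 1.46 and 1.135, against -2.45 and -1.11. In all cells zgc:101699 gave 2.582, si:dkey-79f11.10 gave 2.892, CU459094.3 gave 2.229 and mxc gave 1.175, against -1.92, -1.59, -1.69 and -2.69.

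The minor globins hbaa2 and hbba2 gave -1.367 and -1.423 in all cells, against 2.13 and 2.21 in wild type. In wild type the log2 ratio of the share of erythrocyte-like cells was 3.10, and in the heterozygote 0.28.

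In thrombocyte-like cells mgp gave -1.849, against 4.57, with 84.2% of its heterozygote sham UMIs in 1 cell. In erythrocyte-like cells BX649485.4 gave 4.823 with 10 CPM added, from 0 UMIs in sham, against -1.90 in wild type, with 94.5% of its 7 dpa UMIs in 1 cell.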

How the results depend on the processing

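No paired analysis was possible because each group is 1 pooled library. No value changed direction past its limit under any alternative run. Adding 1 CPM gave 260 genes higher and 260 lower in all cells, 252 and 223 in cardiomyocyte-like, 237 and 85 in endothelial-like, 986 and 222 in epicardial/fibroblast-like and 199 and 172 in macrophage-like cells, with 191 lower in mural-like and 102 lower in thrombocyte-like cells, since low genes then count fully. Genes lower in mural-like cells numbered 180 with TMM and 168 with median-of-ratios scaling, against 99. With no filter on low counts, 173 genes were higher and 90 lower in thrombocyte-like and 457 and 75 in erythrocyte-like cells. In erythrocyte-like cells 167 genes were higher with at least 1000 UMIs per cell and 36 with doublets removed, and 8 were lower both with doublets removed and without the richest cell of each gene. The share ratio of epicardial/fibroblast-like cells was 1.01 with at most 10% mitochondrial UMIs, that of macrophage-like cells 0.10 with the marker minimum doubled, and those of thrombocyte-like and erythrocyte-like cells -1.44 and 1.02 with at least 1000 UMIs. With markers 2-fold apart left out, the epicardial/fibroblast-like ratio was 0.82, and 293 genes were higher and 149 lower in thrombocyte-like cells. For these, the cause was not tested. Leaving out those markers, the richest cell or shared barcodes was chosen after seeing the data. Without the richest cell the log2 ratio in thrombocyte-like cells was -0.29 for mgp and -0.79 for zgc:153704. Erythrocyte-like cells were the shallowest class, with a median of 783 UMIs in sham.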

Other observations

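The gene f13a1a.1 was also higher at 7 dpa in cells without a class (6.79 CPM in sham, 325 CPM at 7 dpa), in mural-like cells (2.31 and 138 CPM) and in epicardial/fibroblast-like cells (1.67 and 109 CPM). The part of free RNA in these levels was not tested.

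Cells without a class were shallow, with medians of 890 and 847.5 UMIs, and held high levels of the keratin krt91 (5882 CPM in sham and 3398 CPM at 7 dpa) and of g0s2 (1932 and 1595 CPM). In mural-like cells krt91 was at 10075 and 3820 CPM, and itih1 at 1003 and 283 CPM.

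At 3 dpa the share of cells with at least 2 cell cycle UMIs after thinning was 43.1% in epicardial/fibroblast-like and 11.2% in cardiomyocyte-like cells of the heterozygote, above the values of both compared libraries.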
